A study of Mus musculus with 6 samples.

Results

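The genes described here are 45 immediate early, feedback inhibitor, early inflammatory and heat shock genes of the mouse, out of 53726 features of an RNA-seq table of Achilles tendon. They were chosen by name from the families known to respond within minutes to hours to growth factors, stretch, cytokines or heat, without the FOS, JUN and EGR families. The rule for membership uses no measured value, but the list was chosen with earlier results of these data known. The study compared mice that lack Dicer, the enzyme that cuts microRNA precursors, in tendon and ligament cells with mice that keep it. RNA-seq covered 1 library for each of 3 genotypes at 4 weeks of age, so no test across mice could be made and no p-value is given. Small RNA-seq libraries of the same tendons were not used here.

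The Control had the genotype Dicer f/f, with both Dicer alleles floxed and no Cre. ScxHt had the genotype ScxCre/+ Knock In:Dicer +/+, with Cre in 1 allele of the tendon transcription factor gene Scx and intact Dicer. Dicer cKO had the genotype ScxCre/+ Knock In:Dicer f/f, with the same Cre allele and both Dicer alleles floxed. Cre is therefore made where Scx is active, mainly in tendons and ligaments, and the muscle, vessel, nerve and immune cells that come with a dissected tendon need not carry the deletion. The knock-in also inactivates the Scx allele it sits in, and Scx had 1055 reads in Control, 686 in ScxHt and 371 in Dicer cKO tendon. The Dicer cKO library thus differs from the Control in Cre, in Scx dose and in Dicer, and from ScxHt in the floxed alleles.

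Immediate early genes are transcribed within minutes of a stimulus by activators that the cell already holds. Among these are CREB at cyclic AMP response elements (CRE), SRF at CArG boxes and NF-kB at kappa B sites. Most immediate early mRNAs are short-lived. Several encode transcription factors that pass the signal on (NR4A, ATF3, MYC, the KLF family), others switch it off again (the MAP kinase phosphatases, ZFP36, SOCS3, the NF-kB inhibitors). The heat shock genes are driven by another activator, HSF1, at heat shock elements. In tendon, stretch and growth factors are known to induce early genes, and CCN1 and CCN2 are among their best known products in connective tissue.

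Promoter windows of 250 bases before and 50 bases after a transcription start were taken from RefSeq on GRCm38.p6, and 36 of the 45 genes had at least 1 window (47 in all). Of these genes, 21 (58.3%) held TGACG, the short form of the CRE, on either strand, against 36.3% of 8732 genes that had a window and enough reads in the Dicer cKO and Control libraries and 23.0% of all 27025 genes with a window. The full CRE, TGACGTCA, which always contains the short form on both strands, stood in the windows of Dusp1, Btg2 and Maff only (3 of 36, 8.33%, against 3.65% of the genes with enough reads). The E-box CACGTG was found in 12 of 36 (33.3%, against 11.8%), the kappa B site in 7 (19.4%, against 6.29%) and the CArG box in 2, Dusp5 and Zfp36 (5.56%, against 1.69%). TGANTCA, the AP-1 site, was held by 3 genes (8.33%, against 6.28%) and GGAATG, the TEAD site, by 5 (13.9%, against 14.5%). The 36 genes were not filtered for reads, unlike the genes with enough reads. They include Cxcl1, Dusp2, Dusp5, Gadd45b, Il6 and Ptgs2, which were under the minimum in Dicer cKO/Control. These are matches of letters and describe the windows, and no binding was measured.

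The next windows were chosen because they hold a CRE or a CArG box and belong to members called lower against the Control. Socs3, also among the lowest, had a window with none of the motifs searched. The windows are shown 5' to 3' along the gene with the full and short CRE and the CArG box in capitals. Nr4a1 (chr15:101266596-101266895, plus strand) had 4 short CREs, the nearest at position -40 from the start. Dusp1 (chr17:26508423-26508722, minus strand) had a full CRE at -143 and a separate short one at -191. Btg2 (chr1:134079106-134079405, minus strand) had a full CRE at -166, and Zfp36 (chr7:28379179-28379478, minus strand) had a CArG box at -58 and no CRE.
Nr4a1: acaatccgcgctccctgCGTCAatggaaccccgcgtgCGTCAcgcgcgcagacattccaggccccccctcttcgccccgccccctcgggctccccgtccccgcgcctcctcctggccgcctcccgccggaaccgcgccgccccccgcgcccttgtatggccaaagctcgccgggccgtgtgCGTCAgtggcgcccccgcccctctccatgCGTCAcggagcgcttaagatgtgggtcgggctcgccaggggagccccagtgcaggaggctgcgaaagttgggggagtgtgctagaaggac
Dusp1: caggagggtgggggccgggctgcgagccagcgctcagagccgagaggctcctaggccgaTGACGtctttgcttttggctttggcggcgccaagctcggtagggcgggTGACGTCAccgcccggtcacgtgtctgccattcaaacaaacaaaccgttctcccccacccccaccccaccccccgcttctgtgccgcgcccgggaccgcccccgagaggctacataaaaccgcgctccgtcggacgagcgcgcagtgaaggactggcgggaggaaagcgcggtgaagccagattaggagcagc
Btg2: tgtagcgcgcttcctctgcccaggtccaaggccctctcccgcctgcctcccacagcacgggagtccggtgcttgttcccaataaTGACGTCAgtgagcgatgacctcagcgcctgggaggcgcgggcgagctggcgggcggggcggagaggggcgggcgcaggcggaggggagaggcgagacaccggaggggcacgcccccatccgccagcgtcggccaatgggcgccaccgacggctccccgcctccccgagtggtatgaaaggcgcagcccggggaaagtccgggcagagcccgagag
Zfp36: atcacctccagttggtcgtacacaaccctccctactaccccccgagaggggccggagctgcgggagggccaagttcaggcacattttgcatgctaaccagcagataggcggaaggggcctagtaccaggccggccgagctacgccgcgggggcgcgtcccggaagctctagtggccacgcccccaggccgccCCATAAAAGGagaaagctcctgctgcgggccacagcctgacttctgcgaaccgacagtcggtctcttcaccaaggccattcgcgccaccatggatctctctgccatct

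The heat shock genes had other letters at their starts. GAANNTTC, a head-to-head heat shock element, was present in 4 of the 5 heat shock genes with a window (Hspa1a, Hspa1b, Hspb1 and Hsph1; 80%) against 6.87% of the genes with enough reads, and in 1 of the 31 other members, Sgk1. Its reverse arrangement TTCNNGAA was present in 1 of the 5, Hsph1 (20%, against 8.3%). The window of Hspa1b (chr17:34959189-34959488, minus strand) is shown for contrast with the windows above, with the element at position -104 in capitals. The same letters stood at the same place before Hspa1a, its near copy.
Hspa1b: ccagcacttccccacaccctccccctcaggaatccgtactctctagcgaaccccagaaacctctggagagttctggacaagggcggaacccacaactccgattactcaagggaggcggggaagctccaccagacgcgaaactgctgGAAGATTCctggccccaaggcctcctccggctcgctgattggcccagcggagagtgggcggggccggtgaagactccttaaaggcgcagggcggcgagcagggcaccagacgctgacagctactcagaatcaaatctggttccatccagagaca

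The 3 libraries held 14959399 to 16244232 counts, of which mitochondrial genes took 2.12% to 4.43%. Dicer1 had 1919 reads in Control, 2025 in ScxHt and 1621 in Dicer cKO tendon, counted over the whole gene and not over the floxed part alone (Dicer cKO/Control ratio 0.877). Tendon fibroblast markers were present in every library, with a summed level of 19723 RPKM in Control, 18043 in ScxHt and 11303 in Dicer cKO tendon, and muscle markers summed to 5542, 4136 and 10238 RPKM. Macrophage markers summed to 95.7, 180 and 74.3 RPKM and Schwann cell markers to 91.4, 122 and 272 RPKM in the same order. In bulk tissue, fewer cells of a type and less RNA per cell cannot be told apart. Of 8 neutrophil markers 6 were at 0 in every library, and of 6 T cell markers Cd3d and Cd3g were.

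Levels between genes were compared per length, as RPKM (reads per kilobase of gene, scaled to the library total). In the Control library the listed genes spanned from 0.0507 RPKM (Il6) to 557 RPKM (Ctgf), and Ctgf, Hspa8, Cyr61 and Dusp1 were the 4 highest. All 45 together made up 0.443% of the counts in Control, 0.416% in ScxHt and 0.311% in Dicer cKO tendon. Ctgf alone gave 25891, 30244 and 14955 of the summed 71823, 65431 and 46472 reads, so the sums follow that gene more than the others. The plot of levels shows that for most transcription factors and feedback inhibitors the Control point lay to the right of both others, while the heat shock points other than those of Hspb1 lay close together.

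**Figure D1:**
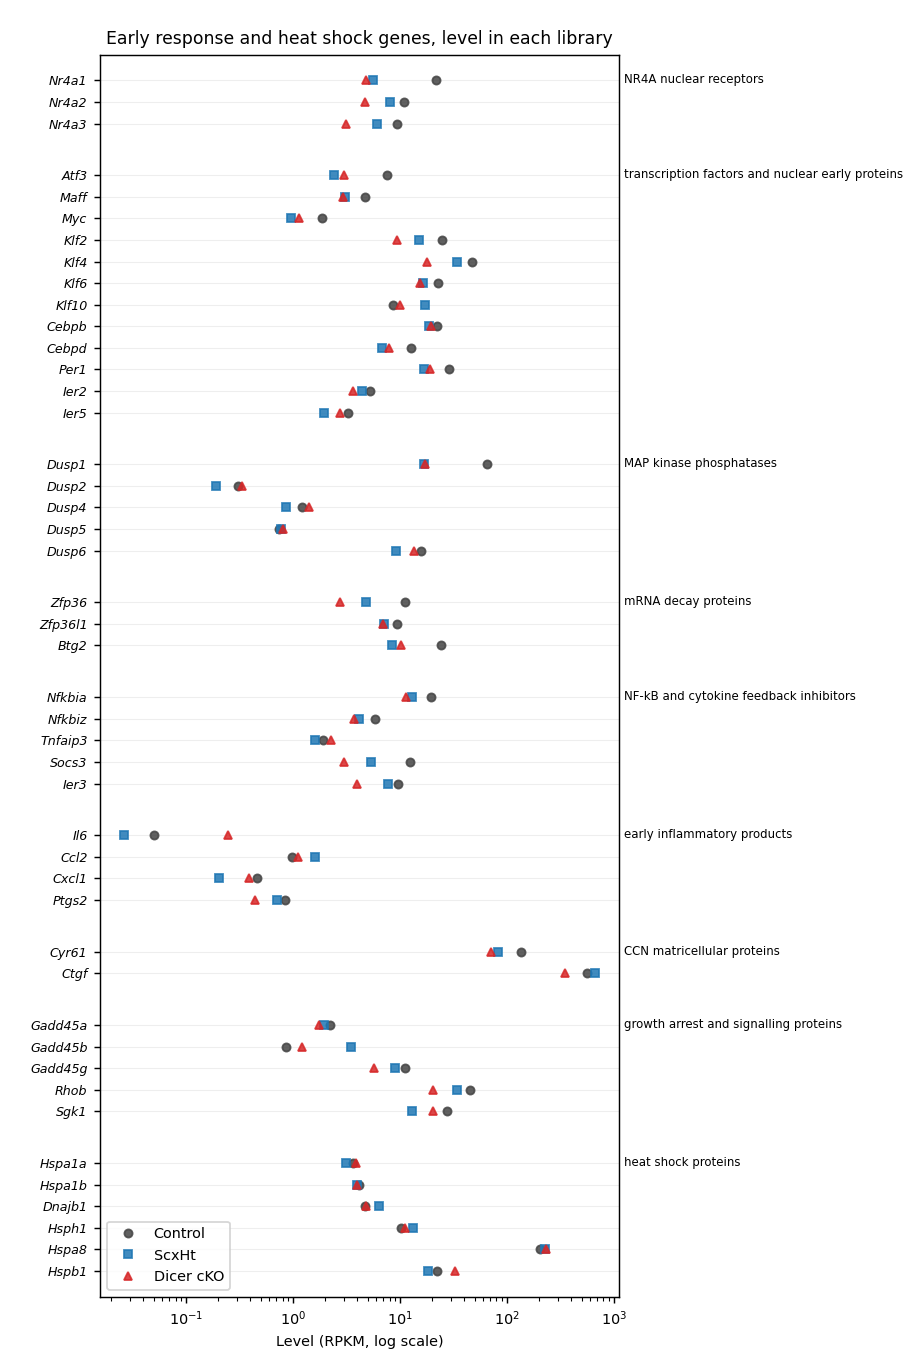
Level of each of the 45 genes (RPKM, log axis) in the Control (grey circles), ScxHt (blue squares) and Dicer cKO (red triangles) library, 1 point per library, in groups by role. Dusp1 stood at 64.6 RPKM in the Control and at 16.9 and 17.0 RPKM in the others, while Hspa8 stood between 202 and 231 RPKM in all 3.

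For each comparison, counts were divided by the size factors of the 2 libraries and the ratio was taken. Genes with a mean normalized count above 50 were analysed, and a gene was called lower below a ratio of 0.60 and higher above the inverse of that, rounded to 2 decimals. The interval after a ratio is its 95% counting interval, which covers the sampling of reads and nothing of the spread between mice. In Dicer cKO/Control, 38 of the 45 genes had enough reads. Of these, 19 (50%) were lower and none was higher, against 4.19% lower and 3.87% higher among all 13404 genes analysed. Myc is among the lower genes and passed the minimum only through the Control, where it was high. The whole interval lay below 0.60 for 13 of them, against 1.36% of all genes, and below 1 for 27, against 28.5%. The median log2 ratio of the 38 was -0.73, a ratio of 0.601, and that of all genes was -0.03. Scaling by total counts changed the split of all genes from 561 lower and 519 higher to 438 and 667.

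In ScxHt/Control, 39 genes had enough reads. Of these, 15 (38.5%) were lower and 2 (5.13%) were higher, Klf10 and Gadd45b, against 4.71% lower and 3.03% higher among all 13462 genes analysed. Here too Myc is among the lower genes and passed the minimum only through the Control. The whole interval lay below 0.60 for 10, against 1.98%. The median log2 ratio was -0.57, a ratio of 0.674, and that of all genes was 0.02. With total counts, all genes split into 456 lower and 640 higher in place of 634 and 408. Both comparisons have the Control library as their denominator, so any excess of these mRNAs in that 1 library enters both, and neither can be told apart from a difference between single mice.

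In Dicer cKO/ScxHt, which does not use the Control, 36 genes had enough reads. Of these, 7 (19.4%) were lower, Nr4a3, Klf4, Zfp36, Socs3, Ier3, Ctgf and Gadd45b, and 1 (2.78%) was higher, Hspb1, against 5.68% lower and 7.68% higher among all 13455 genes. The whole interval lay below 0.60 for 3, Klf4, Ctgf and Gadd45b, against 2.23%. Gadd45b passed the minimum count in this comparison and in ScxHt/Control only through ScxHt, where it was high. In Dicer cKO/ScxHt all 8 macrophage markers analysed were lower too (median ratio 0.440), and their part in the members' values was not tested. The median log2 ratio was -0.10, close to that of all genes at -0.03. Total counts gave 962 lower and 897 higher genes in place of 764 and 1033. The plot of ratios shows this as a column of points around 1, with the low values spread over several roles.

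**Figure D2:**
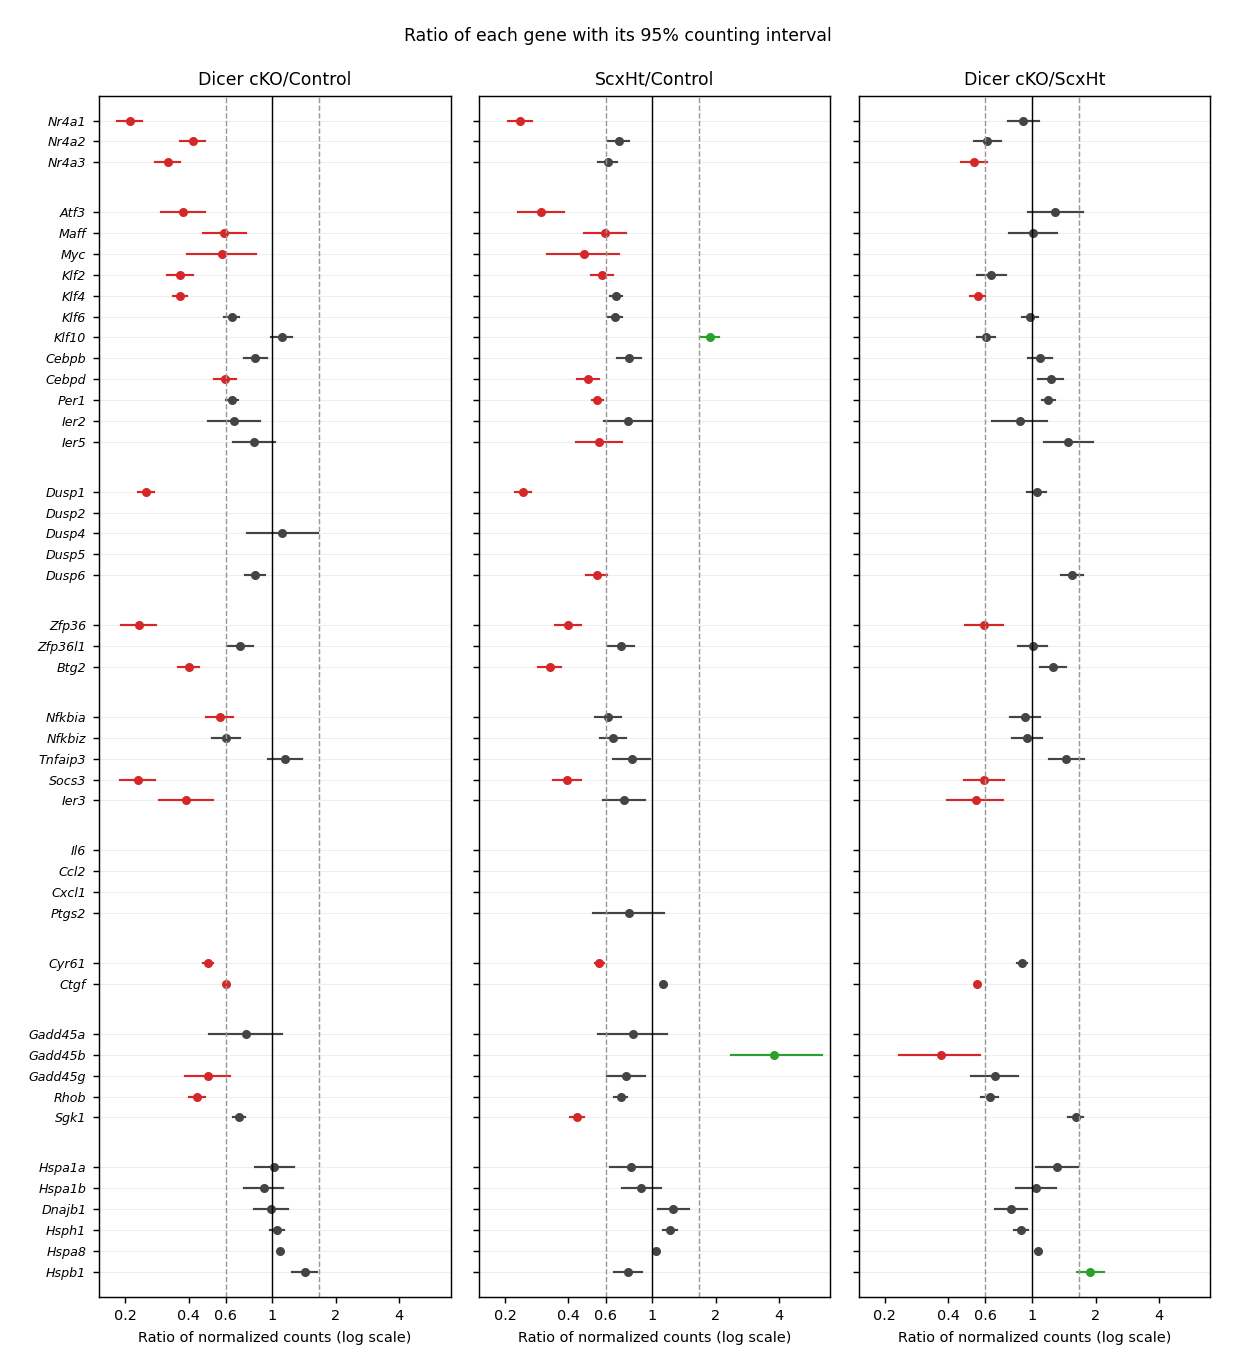
Ratio of normalized counts (log axis) of each gene in the 3 comparisons named above the panels, with bars for the 95% counting interval, dashed lines at both thresholds, red for lower, green for higher and grey for neither. Genes without a point had too few reads, and red points crowd the first panels, with 19 and 15 genes, but not the last, with 7.

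The cumulative plot separates the heat shock genes from the rest. Without the 6 heat shock genes, the median log2 ratio of the early response genes was -0.78 in Dicer cKO/Control (32 genes), -0.69 in ScxHt/Control (33 genes) and -0.13 in Dicer cKO/ScxHt (30 genes). That of the 6 heat shock genes was 0.05, -0.05 and 0.07.

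**Figure D3:**
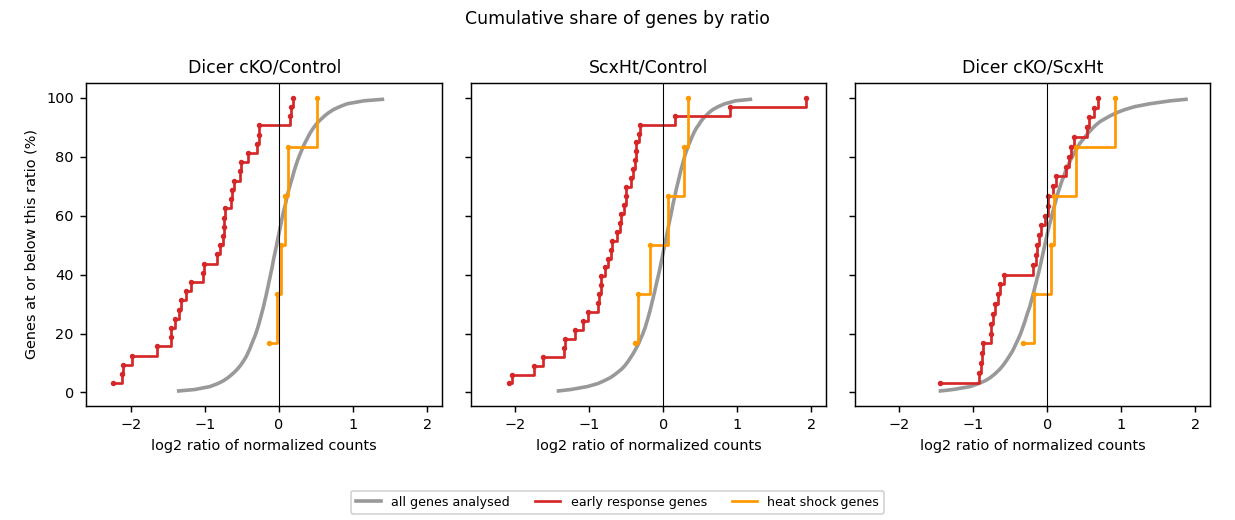
Cumulative share of genes (%) by log2 ratio of normalized counts in the 3 comparisons, for all genes analysed (grey), early response genes (red) and heat shock genes (orange). The red curve lies left of the grey one in both panels against the Control, with medians of -0.78 and -0.69, and near it in Dicer cKO/ScxHt, with a median of -0.13.

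The NR4A genes encode orphan nuclear receptors that cyclic AMP and growth factors induce. Nr4a1 had 1251 reads in Control, 308 in ScxHt and 254 in Dicer cKO tendon, which is 21.9, 5.57 and 4.84 RPKM. The Control was far above both others, with ratios of 0.211 (0.183 to 0.241) in Dicer cKO/Control and 0.236 (0.207 to 0.267) in ScxHt/Control, the lowest among the members in each. Dicer cKO/ScxHt was 0.909 (0.767 to 1.08), an interval that holds 1. Nr4a2 had 714, 518 and 288 reads and Nr4a3 906, 581 and 279. Both stepped down from Control to ScxHt to Dicer cKO, with Dicer cKO/Control ratios of 0.419 (0.364 to 0.481) and 0.320 (0.279 to 0.366). Their ScxHt/Control ratios, 0.695 and 0.614, were above 0.60, and their Dicer cKO/ScxHt ratios were 0.613 and 0.529. The 3 receptors thus differed in where ScxHt stood, near Dicer cKO for Nr4a1 and between the others for Nr4a2 and Nr4a3.

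Among the 12 transcription factors and nuclear early proteins, 6 were lower in Dicer cKO/Control (Atf3, Maff, Myc, Klf2, Klf4 and Cebpd) and none was higher. In ScxHt/Control 7 were lower (Atf3, Maff, Myc, Klf2, Cebpd, Per1 and Ier5) and Klf10 was higher. The shares lower were 50% and 58.3%, against 4.19% and 4.71% of all genes analysed. Atf3, a factor of the stress response, had 267 reads in Control, 83 in ScxHt and 97 in Dicer cKO tendon, with ratios of 0.377 (0.296 to 0.478) in Dicer cKO/Control and 0.298 (0.230 to 0.382) in ScxHt/Control. Both other libraries were far below the Control and their own ratio, 1.29 (0.951 to 1.75), had an interval that holds 1. Myc, the growth factor response gene, had 83, 41 and 46 reads and ratios of 0.575 (0.392 to 0.835) and 0.473 (0.317 to 0.696), with wide intervals because it was rare. Only the Control lifted Myc over the minimum in these comparisons. Maff, a small MAF factor, had 200, 125 and 114 reads, and its ratios of 0.592 and 0.599 lay just inside the threshold. Scaling by total counts in place of size factors took Maff out of the lower genes in both comparisons with the Control, and Myc in Dicer cKO/Control.

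The Krüppel-like factors did not share 1 pattern. Klf2, known for its response to flow in endothelium, had 736, 444 and 258 reads in the Control, ScxHt and Dicer cKO library (24.5, 15.2 and 9.34 RPKM). Klf4, which is likewise an early gene in fibroblasts and endothelium, had 2323, 1634 and 816 reads (46.9, 34.0 and 17.9 RPKM). Both were highest in the Control and lowest in Dicer cKO, with Dicer cKO/Control ratios of 0.364 (0.315 to 0.420) and 0.365 (0.336 to 0.395). Dicer cKO/ScxHt was 0.640 (0.547 to 0.748) for Klf2 and 0.550 (0.505 to 0.599) for Klf4. In ScxHt/Control they were 0.578 (0.512 to 0.651) and 0.674 (0.632 to 0.718). None of 10 endothelial markers was lower or higher in Dicer cKO/Control, where their median ratio was 1.06, while in ScxHt/Control their median was 0.700 and all 10 intervals lay below 1. Their part in the values of Klf2 and Klf4 was not tested. Klf6, a factor of injury responses, had 1637, 1139 and 1009 reads and ratios of 0.640 and 0.666 against the Control, outside the threshold. Klf10, an early gene of TGF-beta signalling, had 582, 1136 and 621 reads. It was highest in ScxHt, with a ScxHt/Control ratio of 1.87 (1.69 to 2.07), while Dicer cKO/Control was 1.11 (0.988 to 1.24) and Dicer cKO/ScxHt 0.602 (0.545 to 0.665).

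The other nuclear members were Cebpb, Cebpd, Per1, Ier2 and Ier5. Cebpd, a factor of the acute phase and of early fat cell differentiation, had 770, 399 and 443 reads, with ratios of 0.597 (0.530 to 0.672) in Dicer cKO/Control and 0.496 (0.439 to 0.561) in ScxHt/Control. The first of these calls was lost with edgeR's TMM scaling. Its relative Cebpb had 547, 443 and 437 reads and ratios of 0.830 and 0.776. Per1, a clock gene that is also an early target of cyclic AMP and glucocorticoids, had 2618, 1500 and 1621 reads and ratios of 0.643 (0.604 to 0.684) and 0.549 (0.515 to 0.585). For these genes the Control was the highest library and ScxHt and Dicer cKO lay close together. Ier5 had 173, 101 and 136 reads, with a ScxHt/Control ratio of 0.559 (0.433 to 0.719) and a Dicer cKO/Control ratio of 0.816 (0.647 to 1.03). Ier2 had 131, 105 and 83 reads and passed the threshold in no comparison (0.658, 0.768 and 0.871). In the reference annotation Cebpd shares 15% of its exonic bases with Spidr and Cebpb 20.7% with Tmem189, both on the other strand, and whether the authors' counting used strand is not given in the sources used here.

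The MAP kinase phosphatases remove the activating phosphates of ERK, JNK and p38. Dusp1, the phosphatase of the stress and glucocorticoid response, had 2832 reads in Control, 720 in ScxHt and 686 in Dicer cKO tendon (64.6, 16.9 and 17.0 RPKM). The Control was far above the others, with ratios of 0.252 (0.231 to 0.274) and 0.244 (0.224 to 0.264), and Dicer cKO/ScxHt was 1.05 (0.944 to 1.17). Dusp6, the ERK phosphatase, had 798, 454 and 636 reads and was lowest in ScxHt, with a ScxHt/Control ratio of 0.545 (0.485 to 0.612) and a Dicer cKO/Control ratio of 0.828 (0.745 to 0.920). The other members were rare. Dusp4 had 54, 37 and 58 reads and, in Dicer cKO/Control, a ratio of 1.12 (0.757 to 1.65), Dusp5 had 30 reads in each library and Dusp2 had 10, 6 and 10, so for Dusp2 and Dusp5 no call was possible.

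Dusp6 is a target and an inhibitor of ERK signalling, as the Sprouty genes are. Of 18 genes of the ERK pathway and its feedback, 1 was lower in Dicer cKO/Control (Spry4, 0.577) and none was higher, and their median log2 ratio was -0.12. The highest was Srf at 1.18. In ScxHt/Control 2 of the 18 were lower (11.1%, against 4.71% of all genes), Spry1 at 0.458 being the lowest, and the median was -0.11. The share lower in Dicer cKO/Control was 5.56%, against 4.19% of all genes. There the whole interval lay below 1 for 44.4%, against 28.5%, and above 1 for 11.1%, against 21.6%.

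The mRNA decay genes act on the early transcripts themselves. Zfp36 encodes tristetraprolin, which binds AU-rich elements and recruits deadenylases. It had 635, 264 and 142 reads (11.3, 4.83 and 2.74 RPKM) in the Control, ScxHt and Dicer cKO library and stepped down in that order. Its ratios were 0.232 (0.192 to 0.279) in Dicer cKO/Control, 0.398 (0.344 to 0.460) in ScxHt/Control and 0.593 (0.480 to 0.730) in Dicer cKO/ScxHt. Btg2, an antiproliferative partner of the deadenylase complex, had 1077, 366 and 416 reads (24.2, 8.46 and 10.1 RPKM). For Btg2 both others were far below the Control, with ratios of 0.401 (0.357 to 0.450) and 0.326 (0.288 to 0.367), and Dicer cKO was slightly above ScxHt, 1.25 (1.09 to 1.45). Zfp36l1, a relative of Zfp36, had 457, 338 and 309 reads and ratios of 0.702 and 0.708. It shares 55.9% of its exonic bases with Gm26669 on the other strand, so its reads are less certain.

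The AU-rich element itself was searched in the 3' UTR of each gene, taking the longest one annotated. TATTTAT was held by 24 of the 45 genes (53.3%), against 32.4% of the 10936 protein-coding genes with an annotated 3' UTR that were analysed in Dicer cKO/Control, and ATTTA occurred at a median of 2.68 per kilobase, against 1.38. For the 38 members analysed there, these values were 52.6% and 2.47 per kilobase. Among members analysed in Dicer cKO/Control, the 20 with TATTTAT had a median log2 ratio of -0.92 and 13 were lower, and the 18 without it had a median of -0.45 and 6 were lower. Of the 6 heat shock genes 5 are among the latter, and without these genes, a setting chosen after the values were seen, the medians were -1.02 (19 genes) and -0.73 (13 genes). In ScxHt/Control, with the heat shock genes, these were -0.70 with 10 of 21 lower and -0.40 with 5 of 18 lower. Without the heat shock genes they were -0.72 and -0.57. In Dicer cKO/ScxHt the medians were -0.11 with TATTTAT and -0.08 without it. There, without the heat shock genes, the order was reversed, at -0.07 with TATTTAT and -0.17 without it. Over all protein-coding genes the medians in Dicer cKO/Control were -0.06 with TATTTAT, where 141 of 3552 were lower, and -0.03 without it, where 273 of 7410 were. In ScxHt/Control 151 of 3558 with TATTTAT and 299 of 7429 without it were lower. The members were also compact, as early genes are known to be, with a median span of 4259 bases and 4 exons against 27650 bases and 10 exons, and 6 of the 45 (13.3%) had a single exon, against 1.7%. The 38 members analysed had a median span of 4360 bases, and 15.8% had a single exon.

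The feedback inhibitors of NF-kB and cytokine signalling were lower in Dicer cKO/Control for 3 of 5 (Nfkbia, Socs3 and Ier3) and in ScxHt/Control for 1 (Socs3). These shares were 60% and 20%, against 4.19% and 4.71% of all genes analysed. Socs3, which blocks the receptors of the interleukin-6 family, had 588 reads in Control, 242 in ScxHt and 130 in Dicer cKO tendon (12.5, 5.31 and 3.01 RPKM). Its ratios of 0.230 (0.188 to 0.278), 0.394 (0.338 to 0.459) and 0.592 (0.475 to 0.736) (Dicer cKO against Control, ScxHt against Control, Dicer cKO against ScxHt) were close to those of Zfp36. Ier3, an early survival gene, had 178, 137 and 67 reads and was called lower in both comparisons of Dicer cKO, with 0.391 (0.291 to 0.520) in Dicer cKO/Control, 0.737 (0.586 to 0.926) in ScxHt/Control and 0.539 (0.396 to 0.727) in Dicer cKO/ScxHt. Nfkbia, the inhibitor that holds NF-kB in the cytoplasm, had 510, 329 and 276 reads and a Dicer cKO/Control ratio of 0.562 (0.484 to 0.652). Nfkbiz, a nuclear inhibitor and coactivator, had 481, 326 and 279 reads and a ratio of 0.602 (0.518 to 0.699), just outside the threshold. Tnfaip3, the ubiquitin-editing inhibitor A20, had 222, 185 and 244 reads, a ratio in Dicer cKO/Control of 1.14 (0.948 to 1.38) and the opposite order of ScxHt and Dicer cKO.

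Of 15 further genes of the NF-kB pathway, 14 had enough reads in Dicer cKO/Control, and none was lower or higher. Among all genes analysed 4.19% were lower and 3.87% higher. The median log2 ratio of the 14 was -0.24, with a range from 0.607 (Nfkbie) to 1.61 (Vcam1). The whole interval lay below 1 for 57.1% of them, against 28.5% of all genes, and above 1 for 14.3%, against 21.6%. The gene left out was Bcl3, just under the minimum at a mean normalized count of 48.2, with a ratio of 0.511 (0.324 to 0.792). In ScxHt/Control all 15 had enough reads and 1 (6.67%, against 4.71% of all genes) was lower, Bcl3 at 0.516. It passed the minimum there only through the Control.

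The early inflammatory products were at the edge of detection. Il6 had 2, 1 and 9 reads, Cxcl1 had 14, 6 and 11, and Ccl2 had 18, 29 and 19 in the Control, ScxHt and Dicer cKO library, too few for a call in any comparison. A count of 3 reads is the floor used here, and Il6 was under it in the Control and in ScxHt. Ptgs2, the inducible cyclooxygenase, had 63, 51 and 30 reads and a ScxHt/Control ratio of 0.775 (0.525 to 1.14). In Dicer cKO/Control it was just under the minimum, at a mean normalized count of 46.2, with a ratio of 0.494 (0.309 to 0.775). The markers of macrophages, a known source of these cytokines, had a pattern of their own: 7 of 8 analysed were higher in ScxHt/Control (median ratio 1.74), 1 of 8 was lower in Dicer cKO/Control (median 0.749) and all 8 were lower in Dicer cKO/ScxHt (median 0.440).

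The CCN genes encode matricellular proteins that YAP and TEAD induce in stretched fibroblasts. Cyr61 (Ccn1) had 4485 reads in Control, 2625 in ScxHt and 2135 in Dicer cKO tendon (137, 82.5 and 70.7 RPKM). Its Control value stood above both others, with ratios of 0.494 (0.469 to 0.521) and 0.561 (0.534 to 0.588), and Dicer cKO/ScxHt was 0.896 (0.846 to 0.949). With total counts Cyr61 was not lower in ScxHt/Control, and neither were Klf2 and Ier5. Ctgf (Ccn2) had 25891, 30244 and 14955 reads (557, 670 and 349 RPKM). Here ScxHt was the highest library, with a ratio of 1.12 (1.10 to 1.14) in ScxHt/Control, and Dicer cKO was the lowest, with 0.5998 (0.588 to 0.612) in Dicer cKO/Control, just under the threshold and above it with TMM scaling, and 0.545 (0.534 to 0.556) in Dicer cKO/ScxHt. Tendon fibroblast markers had a similar order: 7 of 10 were lower in Dicer cKO/Control (median ratio 0.542), and none was lower or higher in ScxHt/Control (median 1.19). Their part in the ratio of Ctgf was not tested. Ctgf shares 23.2% of its exonic bases with Gm15270 on the other strand.

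Of 12 other genes of the YAP and TEAD pathway, none was lower in Dicer cKO/Control, against 4.19% of all genes. Ankrd1 at 1.98 was the 1 higher gene (8.33%, against 3.87%), and the median log2 ratio of the 12 was -0.08. The lowest was Axl at 0.705. In ScxHt/Control 2 of 11 were lower (18.2%, against 4.71% of all genes), Tead4 at 0.399 and Ankrd1 at 0.537. In Dicer cKO/ScxHt 3 of 11 were higher (27.3%, against 7.68%), with Ankrd1 at 3.76. Ankrd1 is also a gene of striated muscle. Of 12 skeletal muscle markers, 8 were higher in Dicer cKO/Control (median ratio 1.98) and 10 in Dicer cKO/ScxHt (median 2.32). In ScxHt/Control 5 of them were lower and 3 were higher (median 0.866). Their part in the value of Ankrd1 was not tested.

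The growth arrest and signalling members each had their own order. Rhob, a small GTPase, had 1711, 1263 and 720 reads (44.8, 34.1 and 20.5 RPKM), stepping down from Control to ScxHt to Dicer cKO, with ratios of 0.437 (0.40 to 0.477) in Dicer cKO/Control and 0.628 (0.572 to 0.689) in Dicer cKO/ScxHt. Sgk1, the serum and glucocorticoid induced kinase, had 2217, 1013 and 1480 reads (27.8, 13.1 and 20.2 RPKM) and was lowest in ScxHt, with 0.438 (0.406 to 0.472) in ScxHt/Control, 0.693 (0.649 to 0.741) in Dicer cKO/Control and 1.61 (1.49 to 1.75) in Dicer cKO/ScxHt. The GADD45 genes, which answer DNA damage and growth arrest, were not alike. Gadd45b had 22, 87 and 29 reads and stood out in ScxHt, the library through which alone it passed the minimum, with 3.79 (2.35 to 6.35) in ScxHt/Control and 0.367 (0.233 to 0.565) in Dicer cKO/ScxHt. Gadd45g had 211, 166 and 100 reads and a Dicer cKO/Control ratio of 0.492 (0.384 to 0.627). Gadd45a had 64, 54 and 46 reads, and its ratio of 0.746 (0.50 to 1.11) had an interval that holds 1.

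Dusp1, Per1 and Sgk1 are also known glucocorticoid targets. Beside them 9 other genes of the glucocorticoid response were listed, with the receptor gene Nr3c1 among them. Errfi1 and Klf9 also belong to the other early response genes listed here. Of the 9, 3 (33.3%) were lower and 1 (11.1%) was higher in Dicer cKO/Control, against 4.19% and 3.87% of all genes. Errfi1 was lowest at 0.321 and Pdk4 highest at 2.92, and the median log2 ratio of the 9 was -0.43. In ScxHt/Control 1 of the 9 (11.1%, against 4.71%) was lower, Errfi1 at 0.377. Fkbp5 at 2.09 was the 1 higher gene there (11.1%, against 3.03%), and the median was -0.05. For Per1, none of 13 circadian clock genes analysed beside it was lower or higher in Dicer cKO/Control or in ScxHt/Control, with medians of -0.05 and -0.08. Npas2 was left out of both by the minimum. In Dicer cKO/Control its mean normalized count was 47.3 and its ratio 2.11 (1.35 to 3.36).

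The heat shock members encode chaperones and their partners, and none was called in either comparison with the Control. Hspa8, the constitutive member of the HSP70 family, had 14137 reads in Control, 15447 in ScxHt and 14862 in Dicer cKO tendon (202, 228 and 231 RPKM), with ratios of 1.09 (1.07 to 1.12) and 1.05 (1.02 to 1.07). The inducible members Hspa1a and Hspa1b had 175, 145 and 172 and 190, 176 and 166 reads. They lie side by side on chromosome 17 and Hspa1a shares 47.1% of its 100-base stretches with Hspa1b letter for letter, so their split is uncertain. Their sum of 365, 321 and 338 reads gave 0.962 (0.827 to 1.12) in Dicer cKO/Control and 0.842 (0.723 to 0.981) in ScxHt/Control. Dnajb1, the HSP40 partner, had 244, 320 and 231 reads and Hsph1, the HSP110 exchange factor, 1199, 1517 and 1215. Both were highest in ScxHt, with ratios of 1.26 (1.06 to 1.49) and 1.21 (1.12 to 1.31) in ScxHt/Control, and level with the Control in Dicer cKO, at 0.983 (0.818 to 1.18) and 1.05 (0.971 to 1.14).

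Hspb1, the small heat shock protein HSP27, was the exception among them. It had 370, 296 and 507 reads (22.1, 18.2 and 32.9 RPKM), with 1.42 (1.24 to 1.63) in Dicer cKO/Control, 0.766 (0.655 to 0.895) in ScxHt/Control and 1.89 (1.63 to 2.19) in Dicer cKO/ScxHt, where it was the only member called higher. Hspb1 is abundant in striated muscle, and muscle markers had median ratios of 1.98, 0.866 and 2.32 in the same 3 comparisons. In ScxHt/Control these markers were split, with 5 of 12 lower and 3 higher, from Myh2 at 0.419 to Myh4 at 4.70. Their part in the value of Hspb1 was not tested. Of 20 further HSF1 pathway and chaperone genes none was lower or higher in Dicer cKO/Control, with a median log2 ratio of 0.19 and a range from 0.697 (Hsf1) to 1.28 (Hspa9). In Dicer cKO/ScxHt 3 of the 20 were higher, and Hspb7, which heart and muscle make, was the highest at 2.77. In ScxHt/Control 3 of the 20 were lower, Hspb7 (0.421), Hspb6 (0.425) and Cryab (0.581), and in Dicer cKO/Control Hspb7 was at 1.15.

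Other early response genes and the AP-1 and EGR families were measured beside the members. Of 25 other early response genes, 23 had enough reads in Dicer cKO/Control, with a median log2 ratio of -0.43. Of these, 7 (30.4%, against 4.19% of all genes) were lower and none was higher. The range was from 0.221 (Gem) to 1.55 (Pim1). In ScxHt/Control 5 of 23 (21.7%, against 4.71%) were lower and 3 (13%, against 3.03%) were higher, from 0.239 (Csrnp1) to 1.81 (Id3), and the median was 0.06. Csrnp1, lower in both comparisons with the Control, passed the minimum only through the Control. Pim1, higher in ScxHt/Control, passed it there only through ScxHt. Of the 11 AP-1 and EGR genes, 8 had enough reads and all 8 were lower in Dicer cKO/Control, from Fosb at 0.0500 to Fosl2 at 0.469, with a median of -1.54. In ScxHt/Control 6 of 8 were lower with a median of -1.58, and in Dicer cKO/ScxHt 2 of 7 were, with a median of -0.06. Egr3, lower in both comparisons with the Control, passed the minimum only through the Control. The plot of list medians shows the AP-1 and EGR genes and the members without heat shock genes left of 0 in both comparisons with the Control. The medians of these members were -0.78 and -0.69, while those of the other early response genes were -0.43 and 0.06. In Dicer cKO/ScxHt the medians of the AP-1 and EGR genes and of the early response members as 1 list lay near 0. That of the other early response genes was -0.32, and the roles ranged from -0.71 (NR4A) to 0.35 (MAP kinase phosphatases, 2 genes). Lower in Dicer cKO/ScxHt were 28.6% of the AP-1 and EGR genes, 23.3% of the early response members and 27.3% of the other early response genes. In these lists none was higher. Among all genes 5.68% were lower and 7.68% higher.

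**Figure D4:**
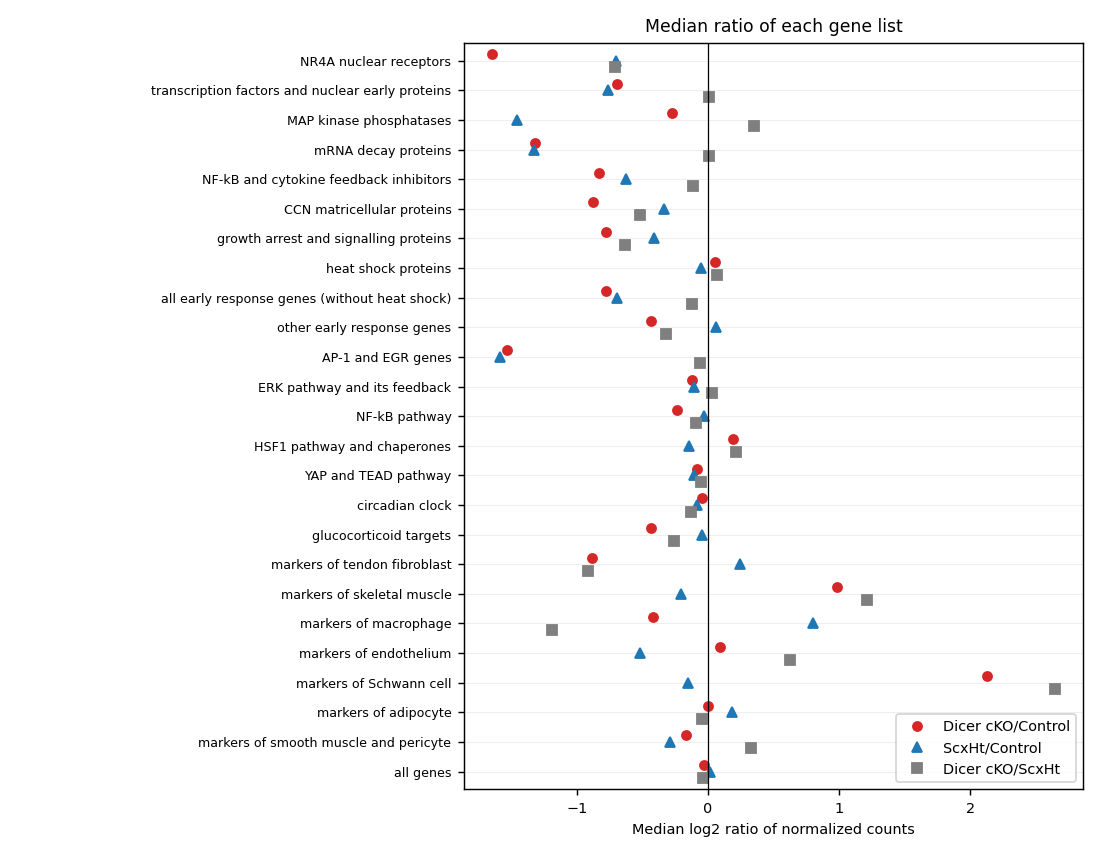
Median log2 ratio of normalized counts of each role of the members, of the other pathway lists, of the cell type marker lists and of all genes, in Dicer cKO/Control (red circles), ScxHt/Control (blue triangles) and Dicer cKO/ScxHt (grey squares). Heat shock proteins lie near 0 in all 3 (0.05, -0.05 and 0.07), and AP-1 and EGR genes at -1.54, -1.58 and -0.06.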

How the data were processed

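Per the labels, the authors mapped reads to GRCm38 (mm10) with TopHat and Bowtie2 and counted them per gene with HTSeq. Versions, annotation release and strand setting are not given in the sources used here. The authors deposited raw read counts, used for every ratio, and RPKM values, made from these counts by gene length and library total, used for levels between genes.

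Of 54189 lines, 463 repeated an earlier line in name and values and were dropped. DESeq2 1.42.0 size factors (R 4.3.3) came from the 2 libraries compared, and ratios and Clopper-Pearson intervals (95%, counting error only) were computed in Python 3.11.15 with scipy 1.17.1. The thresholds (mean normalized count above 50, ratio above 1.67 or below 0.60) follow the study's methods. The study's shrinkage was not applied, since 1 library per genotype gives no spread. The procedure was tested on simulated data. Positions of genes and their 3' UTRs were read from GENCODE vM21 (GRCm38), Cyr61 and Ctgf through their current names Ccn1 and Ccn2, and promoter windows came from RefSeq (GRCm38.p6).

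All 45 members are named, with 8 further gene lists (counts, lowest and highest gene) and 9 marker lists. The members and lists were chosen with earlier results of these data known. The 11 alternatives changed the scaling (edgeR 4.0.16 TMM, total counts and others), the minimum, the thresholds or the pseudocount. The adipocyte markers (median ratio 1.00 in Dicer cKO/Control) and the smooth muscle and pericyte markers (0.893) are given here only.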

Additional observations from a re-analysis of the deposited data

How the results depend on the processing

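No paired analysis was possible because each genotype had 1 library, and no replicate could be left out. No called ratio moved to the other side of 1 under any alternative. Of the uncalled ratios 5 did, all near 1: Dnajb1 in Dicer cKO/Control (0.983, and 1.03 with total counts), Dusp5 in ScxHt/Control, and Maff, Zfp36l1 and Hspa1b in Dicer cKO/ScxHt. The number of members lower in Dicer cKO/Control was between 13 and 20 under all alternatives and the median log2 ratio between -0.74 and -0.64. Without a minimum count 1 member was higher in Dicer cKO/Control (Il6, with 9 reads) and 5 were in Dicer cKO/ScxHt, and with a minimum of 10 this was 2. With a minimum of 200, 1 member was higher in ScxHt/Control and 4 were lower in Dicer cKO/ScxHt. With thresholds of 2 and 0.5, 9 members were lower and 1 was higher in ScxHt/Control, and 1 was lower and 0 were higher in Dicer cKO/ScxHt. With the whole interval past the threshold, 3 were lower and 0 were higher in Dicer cKO/ScxHt. Maff, Cebpd and Ctgf, all near 0.60, were no longer lower in Dicer cKO/Control under TMM, and Myc joined them with total counts. In ScxHt/Control, Maff, Klf2, Ier5 and Cyr61 were no longer lower with total counts. Total counts moved the median log2 ratio of all genes in ScxHt/Control from 0.02 to 0.12 and the split of lower and higher genes from 634 and 408 to 456 and 640. In Dicer cKO/Control that split moved from 561 and 519 to 438 and 667, and in Dicer cKO/ScxHt from 764 and 1033 to 962 and 897. Deposited RPKM gave 389 and 586 in Dicer cKO/Control, 415 and 559 in ScxHt/Control, and 891 and 842 in Dicer cKO/ScxHt. Intervals cover the counting of reads only, and differences between mice were not measured.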
